A study of Mus musculus with 6 samples.

Results

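Peroxiredoxins and the thioredoxin system were examined in olfactory epithelium of Harlequin and control mice through the probe sets whose platform annotation names exactly 1 of 10 genes: Prdx1 to Prdx6, Txn1, Txn2, Txnrd1 and Txnrd2. The rule found 19 probe sets, of 45037 on the array that are not controls, for 7 of the 10 genes, of 18193 genes on the array. These were Prdx2, Prdx3, Prdx4, Txn1, Txn2, Txnrd1 and Txnrd2. The 5 probe sets that name Prdx1 also name Gm21399 and did not meet the rule, and Prdx5 and Prdx6 were not analysed here. The mitochondrial proteins are thus represented by 3 of 4 genes (Prdx3, Txn2 and Txnrd2) and the others by 4 of 6.

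The mutants were 3 male Hq/Y mice of strain B6CBACAw-J/A-Pdcd8-Hq/J, and their controls were 3 male +/Y littermates labelled strain B6CBACa, all 6 months old. Harlequin lowers expression of the X-linked gene Aifm1, once called Pdcd8, which encodes apoptosis-inducing factor, a flavoprotein of mitochondria. The mutation is carried in the germline and is not limited to 1 cell type, and the study asked how gene expression relates to neurodegeneration under oxidative stress in this mutant. Each mouse gave 1 Affymetrix array of RNA from microdissected epithelium, and the deposited unit is a linear probe set signal scaled to the same trimmed mean on every array. The strain labels split the arrays the same way as the mutation, although the controls are labelled littermates of the mutants. From these labels alone, a strain difference and the mutation cannot be told apart.

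Peroxiredoxins are thiol peroxidases that reduce hydrogen peroxide through a reactive cysteine. Most of them are recycled by thioredoxin, a small dithiol protein, which thioredoxin reductase, a selenoenzyme, reduces with NADPH. Separate sets serve the cytosol (Prdx2, Txn1, Txnrd1) and the mitochondrial matrix (Prdx3, Txn2, Txnrd2), while Prdx4 works in the endoplasmic reticulum, where it passes oxidising equivalents to protein disulfide isomerases. Several genes of this system, Txnrd1 among them, are known targets of the stress-activated transcription factor Nrf2, which binds the antioxidant response element.

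The Txnrd1 start with a core of that element is shown because Txnrd1 was the 1 measured gene of the family with such a match. The core TGACNNNGC was searched on both strands in the 250 bases before each annotated start in RefSeq (GRCm38.p6), where 9 of the 10 genes matched by symbol, with 11 windows. It was found in 2 of the 11, 1 window each of Prdx1 and Txnrd1, against 10.2% of all 32851 promoter windows of the same length. Below, the window of the Txnrd1 start at chr10:82858956-82859205, plus strand, is written 5′ to 3′ with the matching letters in capitals. They lie on the opposite strand, 92 to 84 bases before the start. The other 2 Txnrd1 windows held no match.
Txnrd1: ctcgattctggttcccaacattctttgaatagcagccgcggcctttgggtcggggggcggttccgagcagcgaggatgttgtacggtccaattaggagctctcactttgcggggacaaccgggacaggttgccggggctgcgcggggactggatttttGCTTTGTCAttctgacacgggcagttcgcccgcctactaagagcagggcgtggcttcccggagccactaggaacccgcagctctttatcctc

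The arrays carried the labels' tissue and genotype. Aifm1 fell in Harlequin, with signals of 335.4, 221.1 and 211.2 in Harlequin and 1239.9, 1255.6 and 1128.2 in controls (log2 fold change -2.20, SE 0.18, limma adjusted p = 0.0158 over 13219 genes). Permuting the arrays exactly gave a two-sided p of 0.1, which is the lowest value possible with 3 arrays a side. In limma the call did not hold without control replicate 1 (adjusted p = 0.097), 2 (0.0616) or 3 (0.068). The 5 olfactory neuron markers, Omp and Cnga2 among them, summed to 55852.2 to 58464.3 in Harlequin and 54214.6 to 59406.7 in controls. Of 5 sustentacular cell markers 4 were on the array, and they summed to 54228.6 to 55676.1 in Harlequin and 54023.5 to 58900.8 in controls. In whole tissue, fewer cells of a type and less RNA per cell cannot be told apart.

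None of the 7 genes passed the test between genotypes. In limma, over all 13219 genes tested, 0 of 7 had an adjusted p under 0.05 (0.981 to 0.986) and 0 of 7 an unadjusted p under 0.05, where 0.0303% and 4.58% of all genes did. At the brightest probe set of each gene the log2 difference lay between -0.10 and 0.19, with a median of 0.08, and the median of all genes was 5.2e-05. Given 3 arrays per genotype, the 95% intervals of the 7 genes reached from -0.46 to 0.39. A p that misses the threshold does not show that the levels were equal.

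**Figure D1:**
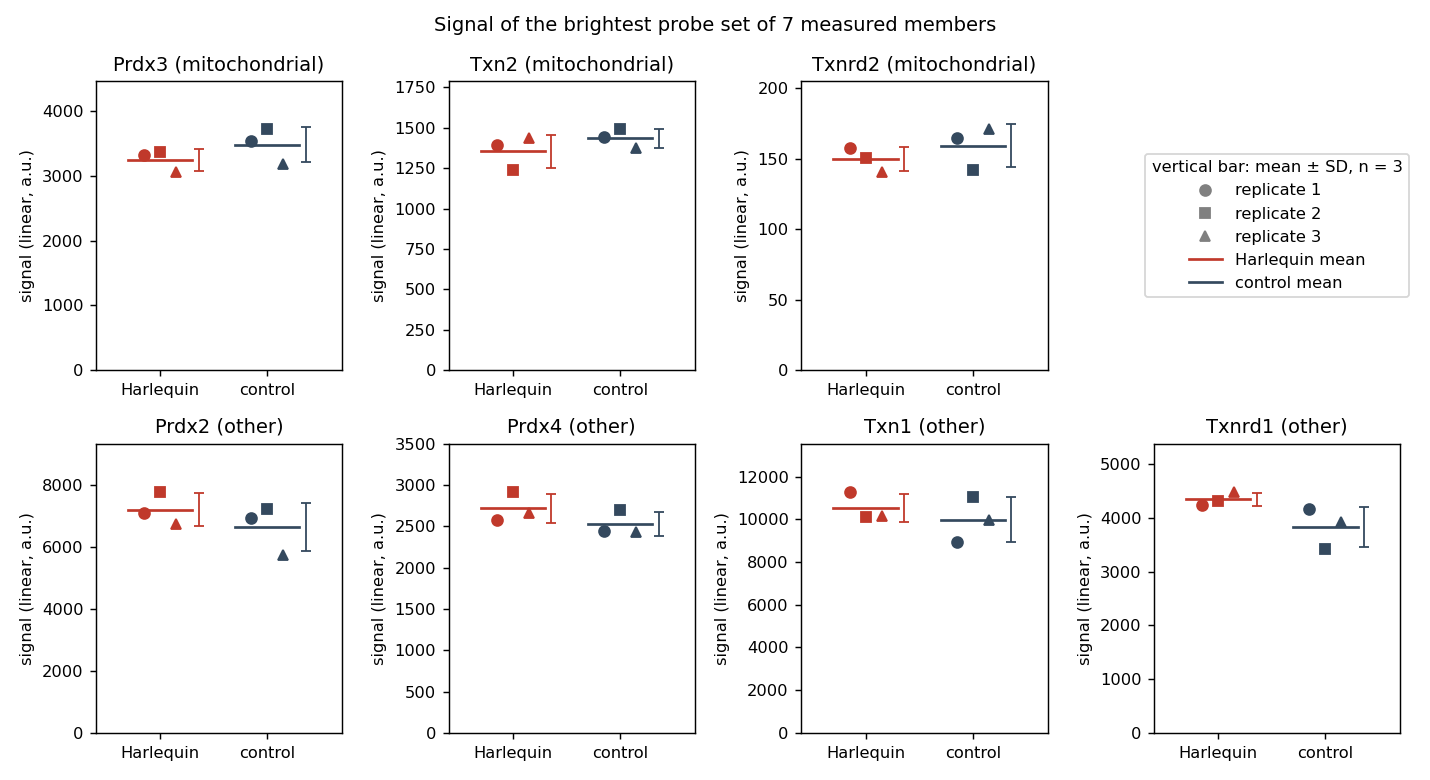
Linear signal (arbitrary units) of the brightest probe set of each of 7 genes on the 3 Harlequin and 3 control arrays; symbols mark the replicate number, lines the mean and vertical bars the SD. The 3 Harlequin points of Txnrd1 lie above the 3 control points, and in the other 6 genes the genotypes overlap.

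Among the peroxiredoxins, Prdx3, the main peroxidase of the mitochondrial matrix, was slightly lower on average in Harlequin. Its single probe set gave 3330.4, 3363.3 and 3057.1 in Harlequin and 3542.9, 3721.9 and 3183.9 in controls. Control replicate 3 lay below 2 of the Harlequin arrays, so the genotypes overlapped. The log2 difference was -0.10 (SE 0.09, 95% interval -0.30 to 0.11), which bounds a loss at 19.0% and a gain at 7.89%.

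Prdx2, the cytosolic peroxidase abundant in neurons and red cells, gave 7087.4, 7765.2 and 6725.0 in Harlequin and 6923.1, 7223.6 and 5745.6 in controls at its brightest probe set. The ranges overlapped and the log2 difference was 0.12 (SE 0.10, 95% interval -0.11 to 0.36). Without control replicate 3, the lowest array, it was 0.02. Prdx4, the peroxiredoxin of the secretory pathway, whose gene lies on the X chromosome as Aifm1 does, gave 2571.3, 2916.8 and 2664.8 in Harlequin and 2449.4, 2702.4 and 2434.3 in controls. Here 2 Harlequin arrays lay below control replicate 2, and the log2 difference was 0.10 (SE 0.09, 95% interval -0.10 to 0.31).

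The thioredoxins, which hand electrons to the peroxiredoxins, overlapped between the genotypes as well. Txn2, the mitochondrial form, gave 1391.4, 1239.4 and 1433.9 in Harlequin and 1440.1, 1490.4 and 1373.1 in controls (log2 difference -0.08, SE 0.10, 95% interval -0.31 to 0.14). Harlequin replicate 2 was the lowest of the 6 arrays, and the other Harlequin arrays lay among the controls. Txn1, the cytosolic form, gave 11282.1, 10125.0 and 10159.3 in Harlequin and 8954.1, 11043.8 and 9972.2 in controls (log2 difference 0.08, SE 0.09, 95% interval -0.13 to 0.29). Control replicate 1 was the lowest array, and without it the difference was 0.0020.

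Of the reductases, Txnrd1, the cytosolic enzyme that keeps Txn1 reduced, had the largest difference of the 7 genes. It gave 4240.1, 4321.5 and 4481.7 in Harlequin and 4157.3, 3422.5 and 3919.1 in controls. All 3 Harlequin arrays lay above all 3 controls, and the nearest pair was 4240.1 in Harlequin and 4157.3 in controls. The Harlequin mean was 113.4% of the control mean (log2 difference 0.19, SE 0.09, 95% interval -0.02 to 0.39, limma unadjusted p = 0.0754, adjusted p = 0.981). It ranged from 0.11 to 0.25 with 1 array left out, lowest without control replicate 2. Txnrd1 was the 1 of 7 genes whose genotypes did not overlap, while 10.4% of all genes tested did not.

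At its brightest probe set Txnrd2, the mitochondrial reductase, gave 157.3, 150.6 and 140.6 in Harlequin and 164.7, 142.1 and 170.8 in controls. The ranges overlapped, and the log2 difference was -0.08 (SE 0.16, 95% interval -0.46 to 0.30), the widest interval of the 7 genes. Another Txnrd2 probe set, 1451936_a_at, was nearly as bright but leaned the other way (mean 156.8 in Harlequin and 140.3 in controls, log2 difference 0.14).

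The mitochondrial genes were set against the others. At the brightest probe sets the log2 differences of Prdx3, Txn2 and Txnrd2 were all below 0 (median -0.08), and those of Prdx2, Prdx4, Txn1 and Txnrd1 were all above 0 (median 0.11), where 50.0% of all genes lay on each side. Per array, the mean log2 deviation of the mitochondrial genes from their mean over 6 arrays, minus that of the others, was -0.05, -0.16 and -0.10 in Harlequin and 0.13, 0.05 and 0.13 in controls. The 3 Harlequin arrays all lay below the 3 controls, and 10.4% of all genes tested, taken singly, did not overlap between the genotypes either. The means were -0.10 ± 0.06 in Harlequin and 0.10 ± 0.04 in controls (SD, n = 3), a difference of -0.21. No test was made of this score, because the genes were chosen with earlier results of these arrays known.

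**Figure D2:**
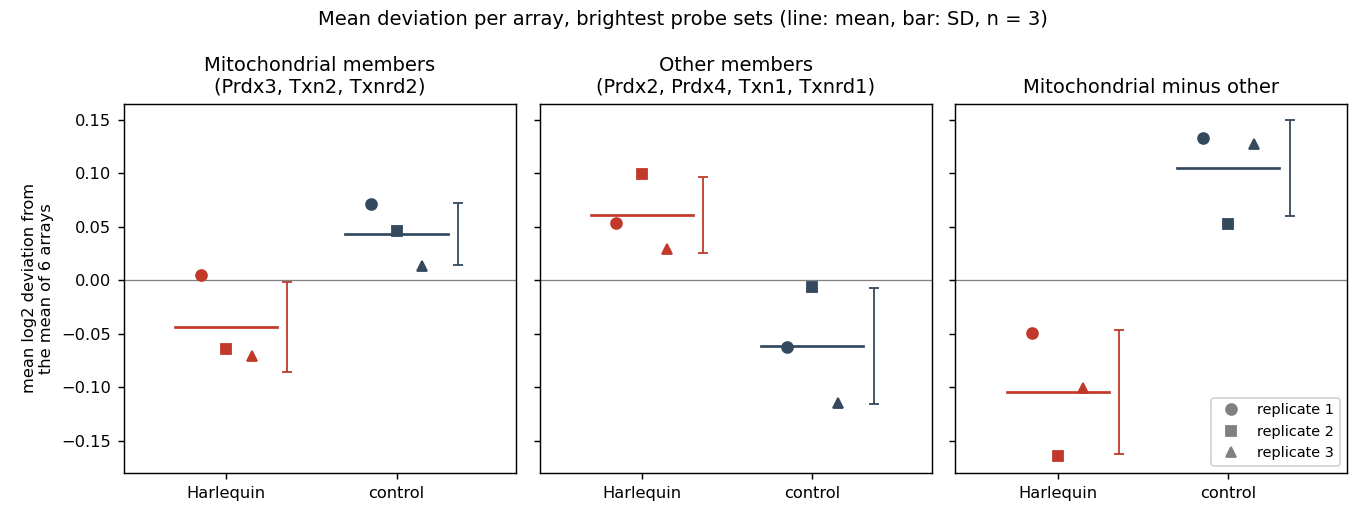
Mean log2 deviation per array for the 3 mitochondrial genes, for the 4 others and for the first minus the second, with Harlequin left of control; lines mark the mean and bars the SD of 3 arrays. In the right panel the Harlequin arrays lie at -0.16 to -0.05 and the controls at 0.05 to 0.13.

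That split rested on the choice of probe set for 2 of the 7 genes. Of the 4 probe sets of Txnrd2, the brightest differed by -0.08, and the other 3 by 0.14, 0.48 and 0.13. Of the 3 tested probe sets of Prdx4, the brightest differed by 0.10 and the other 2 by -0.69 and -0.34. Over the mean of all of a gene's probe sets, a Prdx4 probe set too dim to be tested included, Txnrd2 differed by 0.17 and Prdx4 by -0.20. Neither group of genes then kept a single direction. The difference between the groups was -0.29 on that scale. It was -0.067 once the dimmer Prdx2 probe set was left out (an alternative added after the values were seen). The probe sets of Txn2 (-0.05 to -0.13) and those of Txnrd1 (0.06 to 0.19) each shared a direction.

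Each probe set was also tested on its own. Of the 19 probe sets, 18 passed the signal filter, and a dim Prdx4 probe set (1431269_at, 5.9 to 36.2 over all arrays) did not. In limma over 27022 probe sets, 0 of the 18 had an adjusted p under 0.05 (0.983 to 0.993) and 2 an unadjusted p under 0.05, where 0.0259% and 4.70% of all probe sets did. All 3 Harlequin arrays lay above all 3 controls at 2 of the 18 and below them at 0, against 4.70% and 5.31% of all probe sets tested. The log2 difference was above 0 at 3 of 8 mitochondrial probe sets and at 8 of 10 others, where 49.1% of all probe sets lay above 0. Probe sets of 1 gene share their source and are not independent.

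**Figure D3:**
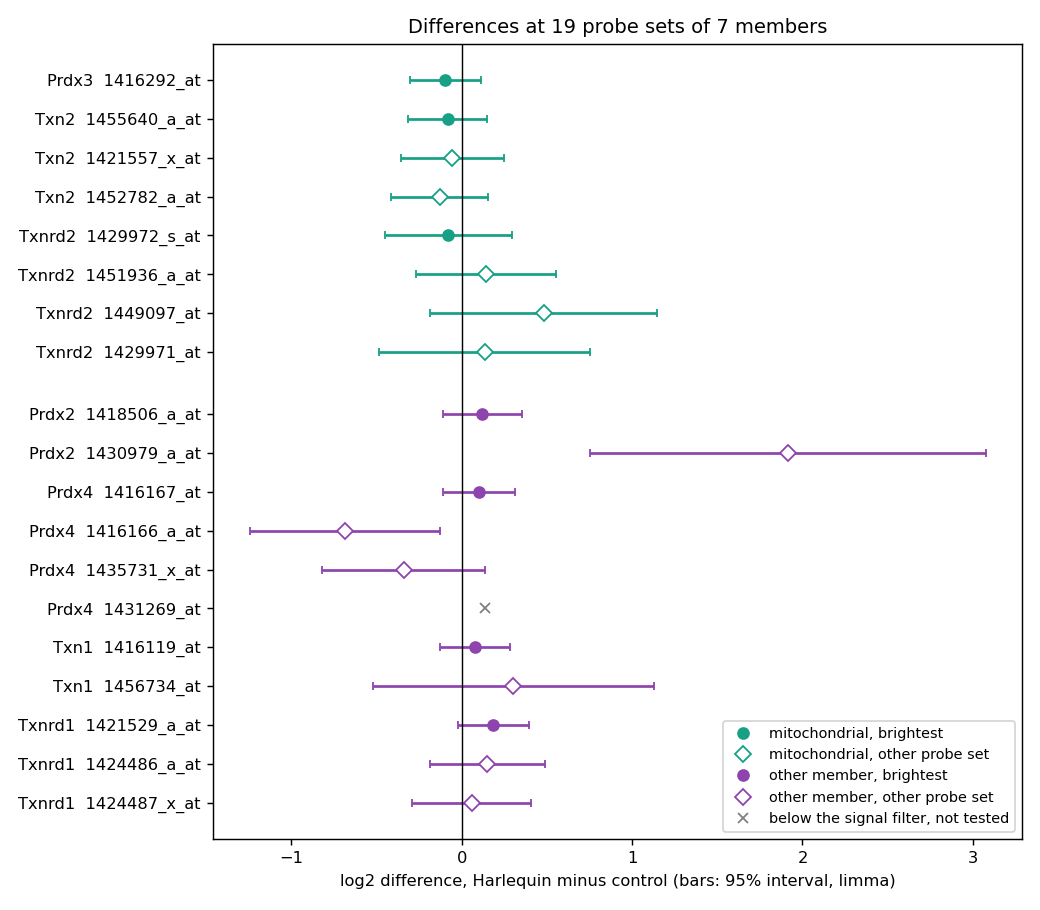
Log2 difference (Harlequin minus control) at each of 19 probe sets of 7 genes, with 95% intervals from limma; filled circles mark the brightest probe set of a gene, open diamonds the others, and the cross 1 probe set below the signal filter. Intervals of the Prdx2 probe set 1430979_a_at (0.75 to 3.07) and the Prdx4 probe set 1416166_a_at (-1.24 to -0.13) do not include 0 before adjustment, and the other 16 do.

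The dimmer of 2 Prdx2 probe sets, 1430979_a_at, had the largest difference in the family. It gave 968.5, 1240.0 and 1078.9 in Harlequin and 154.1, 797.0 and 167.5 in controls. The 3 Harlequin arrays were close together and above all controls, whereas control replicate 2 stood apart from the other controls. The mean was 1096 ± 137 in Harlequin, against 372.9 ± 367 in controls, with SDs over 3 arrays (log2 difference 1.91, SE 0.51, limma unadjusted p = 0.00485, adjusted p = 0.983). Without control replicate 2 the difference was 2.65, and without control replicate 1 it was 1.52. The brighter Prdx2 probe set, described above, did not show it on the same arrays.

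Red cells hold much Prdx2, and most red cell markers had a higher mean in Harlequin without passing the test. Of 12 erythroid markers 8 were on the array and 6 tested. Of these, 6 were higher (50.0% of all genes) and 3 did not overlap between the genotypes (10.4% of all genes). In limma 4 had an unadjusted p under 0.05 (4.58% of all genes) and 0 passed over all genes. Of the other 2, both below the signal filter, Epb42 averaged 49.9 in Harlequin and 23.5 in controls, and Hba-a1, an alpha globin, averaged 12.9 in Harlequin and 37.8 in controls. The summed signal of all 8 was 6599.7, 9844.4 and 7337.8 in Harlequin and 4888.6, 3616.6 and 5833.4 in controls. Its largest part on every array was Car2, which overlapped by itself. Car2 gave 3094.0, 5543.0 and 3965.3 in Harlequin and 3542.7, 2719.4 and 3393.9 in controls. No marker of the list was at 0. Control replicate 2, which had the highest signal of the 3 controls at 1430979_a_at, had the lowest erythroid sum of the 6 arrays. Other cell type lists also leaned one way without passing. All 8 neutrophil markers had log2 differences above 0 (median 0.57, 0 passed, 0 without overlap), with sums of 39488.5 to 59410.5 in Harlequin and 21554.0 to 52689.3 in controls, lowest on control replicate 2. All 6 fibroblast markers had log2 differences below 0 (median -0.44, 0 passed, 0 without overlap), with sums of 19023.3 to 37323.3 in Harlequin and 24709.9 to 39532.0 in controls. The part of red cells and of these other cells in the Prdx2 signals was not tested.

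Prdx4 signals went opposite ways at its probe sets. Probe set 1416166_a_at gave 528.9, 552.8 and 780.3 in Harlequin and 697.5, 1009.0 and 1387.0 in controls. Harlequin replicate 3 lay above control replicate 1, so the genotypes overlapped, and the log2 difference was -0.69 (SE 0.25, limma unadjusted p = 0.0215, adjusted p = 0.985). It was -0.45 without control replicate 3, the highest array. Probe set 1435731_x_at, whose suffix marks probes that may match other transcripts, gave 302.5, 255.8 and 433.3 in Harlequin and 350.2, 407.4 and 494.2 in controls, a log2 difference of -0.34.

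Prdx4 is abundant in secretory cells, so gland and plasma cell markers are given beside it. The 7 gland markers, all on the array and none at 0, summed to 76003.4 to 96425.6 in Harlequin and 96567.3 to 108535.7 in controls. Of the 7, 6 were lower on average (50.0% of all genes), 2 did not overlap (10.4% of all genes) and 0 passed (median log2 difference -0.20). Bpifb9b, at 426.3 on Harlequin replicate 1 and 10975.6 to 29626.1 on the other arrays, varied most, and without it the other 6 summed to 74398.1 to 77603.4 in Harlequin and 78909.6 to 87509.9 in controls. The 6 plasma cell markers, all on the array and none at 0, summed to 10979.1 to 12486.2 in Harlequin and 11048.3 to 12519.4 in controls. Most of that sum was Xbp1, a secretory cell transcription factor and the 1 tested marker of the list that was lower (log2 difference -0.08). Leaving it out was not among the planned steps. The other 5 then summed to 1394.1, 1013.5 and 1642.7 in Harlequin and 878.0, 644.9 and 667.7 in controls, with no overlap between the genotypes. The largest part was Jchain, which overlapped by itself (945.0, 459.5 and 1228.1 in Harlequin, 465.4, 353.4 and 341.3 in controls). The 5 plasma cell markers tested are a different set, with Xbp1 and without Cd79a, which was below the signal filter. Of these, 4 were higher on average (50.0% of all genes), 2 did not overlap (10.4% of all genes) and 0 passed (median log2 difference 0.32). The part of gland tissue and of plasma cells in the Prdx4 signals was not tested.

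**Figure D4:**
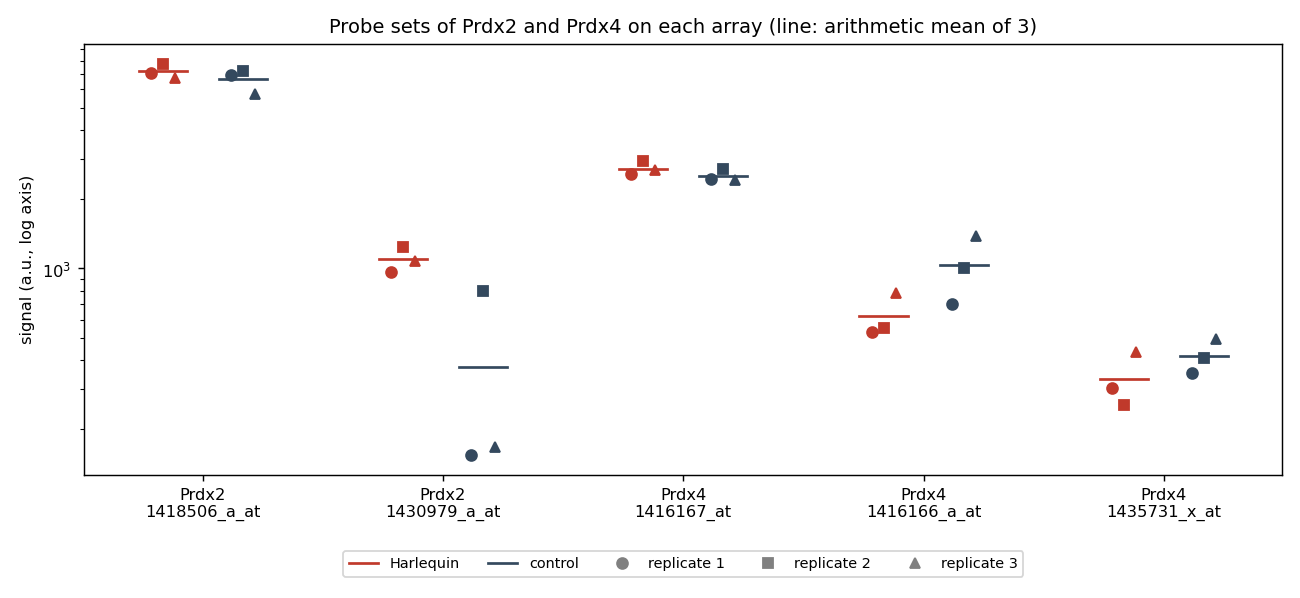
Signal (arbitrary units, logarithmic axis) at the 2 Prdx2 and 3 tested Prdx4 probe sets on each array, with Harlequin left of control in each pair; symbols mark the replicate number and lines the mean of 3. At 1430979_a_at control replicate 2 (797.0) lies near the Harlequin arrays (968.5 to 1240.0) and away from the other controls (154.1 and 167.5).

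Genes that act with this system were counted in 4 lists. All 41 listed genes were tested. In limma 0 of 41 passed over all genes (adjusted p of 0.981 to 0.999) and 0 had an unadjusted p under 0.05, against 4.58% of all genes. Their median log2 difference was 0.02, with 23 higher and 18 lower, and 2 of 41 did not overlap between the genotypes, against 10.4% of all genes.

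Among 9 regulators and partners, 0 passed in either direction and the median log2 difference was 0.03. Sesn3, a stress-induced sestrin, gave 1327 ± 219 in Harlequin and 1500 ± 94.1 in controls, with SDs over 3 arrays, a log2 difference of -0.19. Nnt, the mitochondrial transhydrogenase that supplies the NADPH used by Txnrd2, differed by -0.05. Txnrd3, the third reductase, differed by 0.10 and Sesn2 by 0.07.

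Among 7 reductases that draw on thioredoxin, 0 passed and the median was 0.0038. Rrm2 and Rrm1, ribonucleotide reductase subunits that make deoxynucleotides in dividing cells, had the highest log2 differences of the list. Rrm2 gave 571.7 ± 33.7 in Harlequin and 528.7 ± 303 in controls, with SDs over 3 arrays, a log2 difference of 0.24, and control replicate 3 alone gave 875.8, the highest of the 6 arrays. Rrm1 differed by 0.20. The methionine sulfoxide reductases Msrb3 and Msrb1, which repair oxidised methionine, differed by -0.07 and -0.05.

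Of 16 other thioredoxin-like proteins and glutaredoxins, 8 were higher, 8 lower and 0 passed (median 0.01). Txndc12 and Txndc11, both proteins of the endoplasmic reticulum, differed by 0.18 and 0.17. The mitochondrial glutaredoxin Glrx2 and Txndc17, a cytosolic thioredoxin-like protein, each differed by -0.10. The 2 genes without overlap, named after their values were seen, were Txnl4a, a splicing protein with a thioredoxin fold (0.10), and Txndc16 (0.16), both higher in Harlequin. In the list of 9 enzymes of disulfide formation in the endoplasmic reticulum, the compartment of Prdx4, 0 passed and the median was -0.0066. The disulfide isomerases Pdia6 and Pdia5 differed by 0.13 and 0.10, and the sulfhydryl oxidases Qsox1 and Qsox2 by -0.11 and -0.04.

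**Figure D5:**
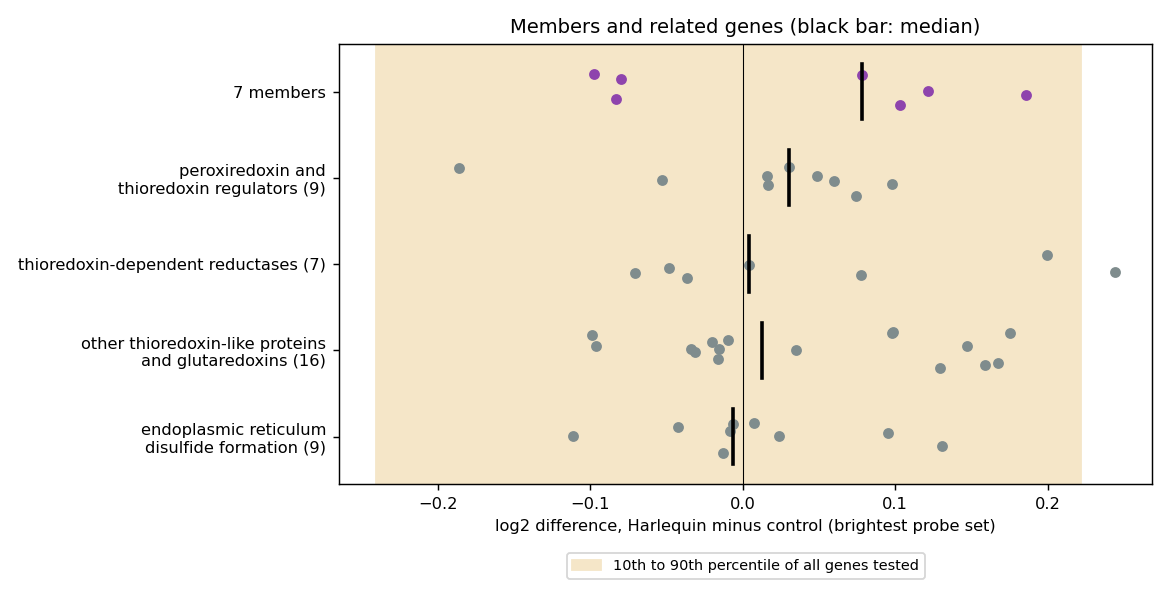
Log2 difference (Harlequin minus control) at the brightest probe set of the 7 measured genes and of the genes in 4 related lists; black bars mark list medians and the shaded band spans the 10th to 90th percentile of all genes tested (-0.24 to 0.22). All but 1 of the 48 points, Rrm2 at 0.24, lie within the band.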

How the data were processed

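The deposited values are linear intensities, 1 per probe set and array. Over all 45101 probe sets, controls included, every array had a mean of 500.0, to 1 decimal, after leaving out 2% at each end, as after scaling by 1 factor per array. The sources used here do not give the software behind them. The 64 control probe sets were dropped and the rest put on a log2(value + 16) scale, on which dim genes show reduced fold changes. Each gene was represented by its probe set with the highest mean. Genes were tested where that probe set's mean exceeded 61.1, the 40th percentile over all 45037 probe sets that are not controls, 13219 of 18193. The genotypes were tested in limma 3.58.1 under R 4.3.3 with an intensity trend, two-sided, with Benjamini-Hochberg adjustment over all genes or, for single probe sets, all 27022 probe sets. Values of a gene's other probe sets come from the latter.

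The labels call the arrays of a genotype biological replicates. The procedure was tested on simulated data. The genes and lists were chosen with earlier results of these data known. All measured members, Aifm1 and, per related list, the genes that passed and the 2 highest and 2 lowest differences are named. Summaries used Python 3.11.15 and pandas 2.3.3. Precision is limited by 3 arrays per genotype. Alternatives varied the pseudocount (1 and 64), filter, scaling, variance model, weights, probe set choice, replicate block and arrays left out.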

Additional observations from a re-analysis of the deposited data

How the results depend on the processing

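The count of family genes past the threshold stayed at 0 in all 19 alternatives. Txnrd2 could not be given at the 60th percentile filter, which left it out. Quantile normalization and median scaling, under which the median log2 difference of all genes was 0.0019 and 0.03, changed the direction of 0 of the 7 genes. With all probe sets of each gene averaged, the median of the 7 genes was 0.13, Prdx4 differed by -0.20 and Txnrd2 by 0.17, and mitochondrial minus other was -0.29, or -0.067 without the dimmer Prdx2 probe set. Without _s_at and _x_at probe sets, Txnrd2 differed by 0.14 and mitochondrial minus other was -0.13. With 1 array left out the median was 0.0020 to 0.11 and mitochondrial minus other -0.24 to -0.18. The count of all genes called, 4, was 0 without an intensity trend (643 at an unadjusted p under 0.05), 7 when every probe set was tested, and 0 to 3 with 1 array left out. Aifm1 stayed at -2.20 without the trend (limma adjusted p = 0.0887) and ranged from -2.40 to -2.08 with 1 array left out. Deviations of same-numbered arrays correlated at -0.24, -0.03 and 0.06, and those of differently numbered arrays at -0.25 to 0.30. With 3 arrays per genotype these values cannot show whether same-numbered arrays were handled together. With the replicate block 0 genes were called (541 at an unadjusted p under 0.05), and Aifm1, at -2.20, had a limma adjusted p of 0.0605.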
